A study of Rattus norvegicus with 12 samples.

Results

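Srebf2, Insig1, Hmgcs1, Idi1, Fdps, Sqle, Lss and Dhcr7 are genes of cholesterol synthesis and its control. They were taken by gene symbol from expression tables of cultured heart muscle cells, and make up 8 of the 18483 genes listed there. None of the 8 encodes a lipoprotein receptor, so genes of cholesterol uptake were read from a separate list. All 8 passed the filter on low counts, which kept 13967 genes for testing.

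RNA was sequenced from neonatal rat ventricular myocytes (NRVMs) of Sprague-Dawley rats in 4 groups of 3 biological replicates. The siNeg cells received a control small interfering RNA, and the siSlc39a2 cells received one against Slc39a2, a member of the SLC39 family of zinc importers. In siNeg PE and siSlc39a2 PE, phenylephrine (PE), an α1-adrenergic agonist that makes these cells grow, was added 12 h after transfection and left for 36 h per the labels, while the study's culture methods give a longer exposure. All groups were transfected, and none was left without siRNA. The cultures are primary cells and can hold other heart cells, and in bulk RNA fewer cells of a type cannot be told apart from less RNA per cell.

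Cells make cholesterol from acetyl-CoA through mevalonate, isoprenoid phosphates, squalene and lanosterol. The transcription factor SREBP2, the product of Srebf2, is held in the endoplasmic reticulum by the INSIG proteins together with SCAP while sterols are plentiful. When sterols fall, SREBP2 is carried to the Golgi, cleaved and moved to the nucleus, where it activates the genes of the pathway and INSIG1.

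Libraries held between 24065539 and 28603854 expected counts per sample. Slc39a2 itself had 50, 50 and 59 counts in siNeg, 21, 11 and 2 in siSlc39a2, 95, 198 and 182 in siNeg PE and 31, 25 and 38 in siSlc39a2 PE. It was lower with siSlc39a2 both without PE (log2 fold change -2.35, SE 0.46, edgeR adjusted p = 9.80e-04) and with PE (-2.33, SE 0.38, edgeR adjusted p = 2.24e-04). The 8 cardiomyocyte markers checked summed to between 34850 and 45220 CPM (counts scaled to the size of the library) in every sample, against at most 21.1 CPM for 6 endothelial markers. Other cell types were not absent. In siNeg, 8 fibroblast markers summed to between 13630 and 18120 CPM, and 4 smooth muscle markers to between 1899 and 1959 CPM.

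Promoter sequence was searched for letters known from sterol-regulated genes. RefSeq promoter sequence (GRCr8, the 250 bases before the annotated start) was found for 7 of the 8 genes, all but Sqle. Those of Srebf2 (chr7:115543057-115543306, plus strand), Hmgcs1 (chr2:53382054-53382303, plus strand), Idi1 (chr17:66547525-66547774, minus strand) and Lss (chr20:12118231-12118480, minus strand) are shown, since the results below turn on the regulator and on enzymes with large, small and opposite responses. Capitals mark CCAAT, the letters bound by NF-Y, read on either strand (ATTGG on the other), and TCACNCCA, a core of the sterol regulatory element, also read on either strand.
Srebf2 promoter: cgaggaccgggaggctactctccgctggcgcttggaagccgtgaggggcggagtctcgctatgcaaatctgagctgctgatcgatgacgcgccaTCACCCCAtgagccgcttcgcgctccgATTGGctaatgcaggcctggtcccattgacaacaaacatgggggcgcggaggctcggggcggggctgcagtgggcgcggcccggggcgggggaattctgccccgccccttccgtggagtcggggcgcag
Hmgcs1 promoter: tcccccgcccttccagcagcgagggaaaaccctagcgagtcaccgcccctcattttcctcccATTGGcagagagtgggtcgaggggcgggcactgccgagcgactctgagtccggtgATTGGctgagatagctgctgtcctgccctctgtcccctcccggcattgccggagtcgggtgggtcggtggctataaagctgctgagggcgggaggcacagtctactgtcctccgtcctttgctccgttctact
Idi1 promoter: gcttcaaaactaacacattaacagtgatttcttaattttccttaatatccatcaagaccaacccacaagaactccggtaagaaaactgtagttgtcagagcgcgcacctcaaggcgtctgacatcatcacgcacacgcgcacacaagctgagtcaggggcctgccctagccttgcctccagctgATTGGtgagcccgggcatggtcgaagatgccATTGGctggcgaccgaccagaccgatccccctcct
Lss promoter: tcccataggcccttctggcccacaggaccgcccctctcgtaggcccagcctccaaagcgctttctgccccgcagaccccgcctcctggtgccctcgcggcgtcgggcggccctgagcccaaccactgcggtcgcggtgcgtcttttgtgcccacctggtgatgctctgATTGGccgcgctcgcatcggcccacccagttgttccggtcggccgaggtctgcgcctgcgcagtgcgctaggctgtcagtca
CCAAT was present in 6 of the 7 promoters (85.7%), against 34.0% of all 33469 rat promoters of the same length. Hmgcs1 held it at 188 to 184 and at 133 to 129 bases before the start, Idi1 at 66 to 62 and 35 to 31, Srebf2 at 129 to 125 and Lss at 82 to 78. Dhcr7 was the only one of the 7 without it. TCACNCCA was found in Srebf2 alone, at 156 to 149 bases before the start, and in 3.24% of all promoters, and the marked letters of Srebf2 did not overlap. These are matches of letters and were not tested for binding.

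Levels are given as FPKM, fragments per kilobase of transcript scaled to the library's size, which can be compared between genes. In siNeg cells, Fdps, which makes farnesyl diphosphate, stood highest of the 8 at 240 ± 6.56 FPKM (SD, n = 3). Srebf2 followed at 36.3 ± 1.45 FPKM and Dhcr7, the last reductase of the pathway, at 28.9 ± 1.78 FPKM. Insig1 (27.2 ± 2.64 FPKM), Hmgcs1 (23.3 ± 2.64 FPKM) and Sqle (19.1 ± 2.14 FPKM) came next. From Dhcr7 down to Sqle, each gene's samples overlapped those of its neighbour, while the other steps in the order did not overlap. Lss at 9.55 ± 1.07 FPKM and Idi1 at 6.20 ± 0.55 FPKM were lowest. The 8 genes together took between 0.0741% and 0.0783% of all counts in siNeg, between 0.180% and 0.195% in siNeg PE, between 0.0851% and 0.0985% in siSlc39a2 and between 0.203% and 0.217% in siSlc39a2 PE. These shares did not overlap between any of the groups.

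**Figure D1:**
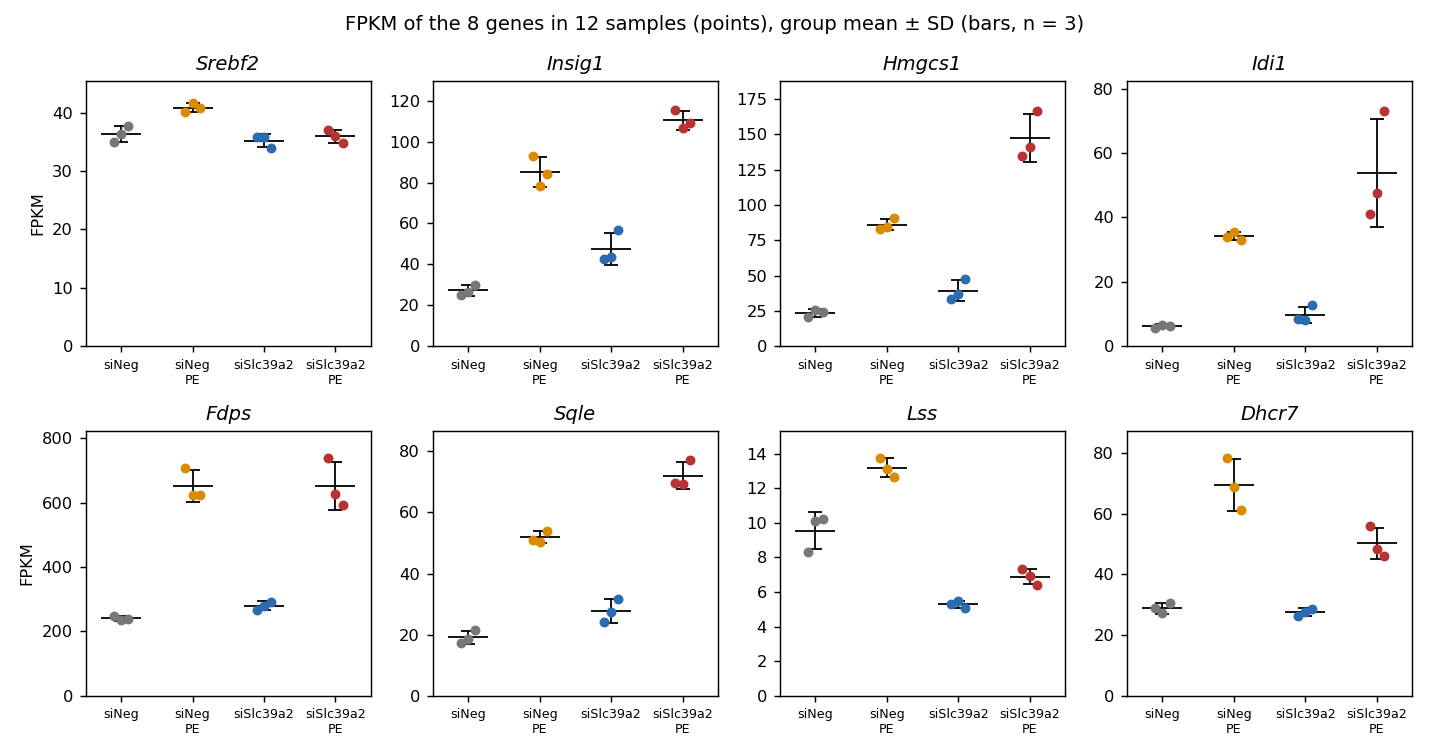
FPKM of each of the 8 genes (vertical axes, each from 0) in the 4 groups (horizontal axes), with points for the 12 samples and bars for the group mean ± SD, n = 3. Both PE groups lie above both groups without PE for Insig1, Hmgcs1, Idi1, Fdps, Sqle and Dhcr7, while for Lss both siNeg groups lie above both siSlc39a2 groups.

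The first comparison asked how PE changed these genes in control cells. PE raised 7 of the 8 genes, from 1.35-fold for Lss to 5.22-fold for Idi1, and 6 of them by a log2 fold change above 1. Over all genes tested, 24.0% were higher with PE at an adjusted p below 0.05 in edgeR's quasi-likelihood test, 25.7% were lower, and 3.80% were higher past a log2 fold change of 1. The median log2 fold change of the 8 genes was 1.36, against -0.01 over all genes tested. No gene of the 8 fell.

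Srebf2, which encodes the transcription factor itself, had 34.9, 36.3 and 37.8 FPKM in siNeg and 40.1, 41.7 and 40.7 FPKM in siNeg PE. Its log2 fold change in counts was 0.09 (SE 0.05, 95% interval -0.02 to 0.21, edgeR adjusted p = 0.162), so it did not pass the test. The FPKM of the 2 groups did not overlap, and limma on log2(FPKM + 1) gave 0.19 with an adjusted p of 0.0157.

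Insig1, whose product retains the SREBP complex and is itself a target of it, had 24.9, 26.7 and 30.1 FPKM in siNeg and 92.8, 78.2 and 84.2 FPKM in siNeg PE. The log2 fold change was 1.57 (SE 0.11, edgeR adjusted p = 3.81e-07). Every PE sample lay far above every siNeg sample.

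Among the 8 genes, Idi1 and Hmgcs1 rose most. Hmgcs1, the synthase that makes HMG-CoA, went from 20.3, 25.5 and 23.9 FPKM in siNeg to 83.1, 84.5 and 90.5 FPKM with PE (log2 fold change 1.81, SE 0.12, edgeR adjusted p = 3.17e-07). Idi1, which interconverts the basic isoprenoid diphosphates, went from 5.60, 6.67 and 6.34 FPKM to 34.0, 35.4 and 33.1 FPKM (2.38, SE 0.20, edgeR adjusted p = 2.45e-06). Idi1 was the lowest of the 8 in siNeg and passed Lss with PE. Fdps had 248, 236 and 237 FPKM in siNeg and 709, 625 and 623 FPKM in siNeg PE (1.36, SE 0.09, edgeR adjusted p = 3.33e-07). Its counts were not whole numbers, which can arise where reads are split between genes, so its values are given as uncertain.

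The enzymes from squalene onward rose as well. Sqle, the epoxidase that brings oxygen onto squalene, had 17.2, 18.7 and 21.4 FPKM in siNeg and 51.1, 50.4 and 54.0 FPKM in siNeg PE (log2 fold change 1.37, SE 0.09, edgeR adjusted p = 4.51e-07). Lss, the cyclase that closes the ring to lanosterol and acts directly after Sqle, had 8.31, 10.1 and 10.2 FPKM in siNeg and 13.8, 13.1 and 12.7 FPKM with PE (0.44, SE 0.09, edgeR adjusted p = 0.00142). The PE samples of Lss all lay above the siNeg samples, but the step was the smallest of the 7 called. Dhcr7 had 28.8, 27.1 and 30.7 FPKM in siNeg and 78.3, 68.9 and 61.4 FPKM with PE (1.19, SE 0.10, edgeR adjusted p = 2.70e-06).

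The same comparison was made in knockdown cells, with its own control samples. PE raised 7 of the 8 genes again, 5 of them past a log2 fold change of 1, with a median of 1.27. Over all genes, 30.7% were higher, 29.3% lower and 6.34% higher past a log2 fold change of 1. Idi1 rose by 2.52 (SE 0.20), Hmgcs1 by 1.97 (SE 0.12), Sqle by 1.44 (SE 0.09), Fdps by 1.28 (SE 0.09) and Insig1 by 1.27 (SE 0.10) on the log2 scale. Dhcr7 rose by 0.92 (SE 0.10) and Lss by 0.46 (SE 0.09), and the largest of these 7 edgeR adjusted p-values was 8.14e-04 (Lss). Srebf2 had a log2 fold change of 0.09 (95% interval -0.03 to 0.20, edgeR adjusted p = 0.184).

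**Figure D2:**
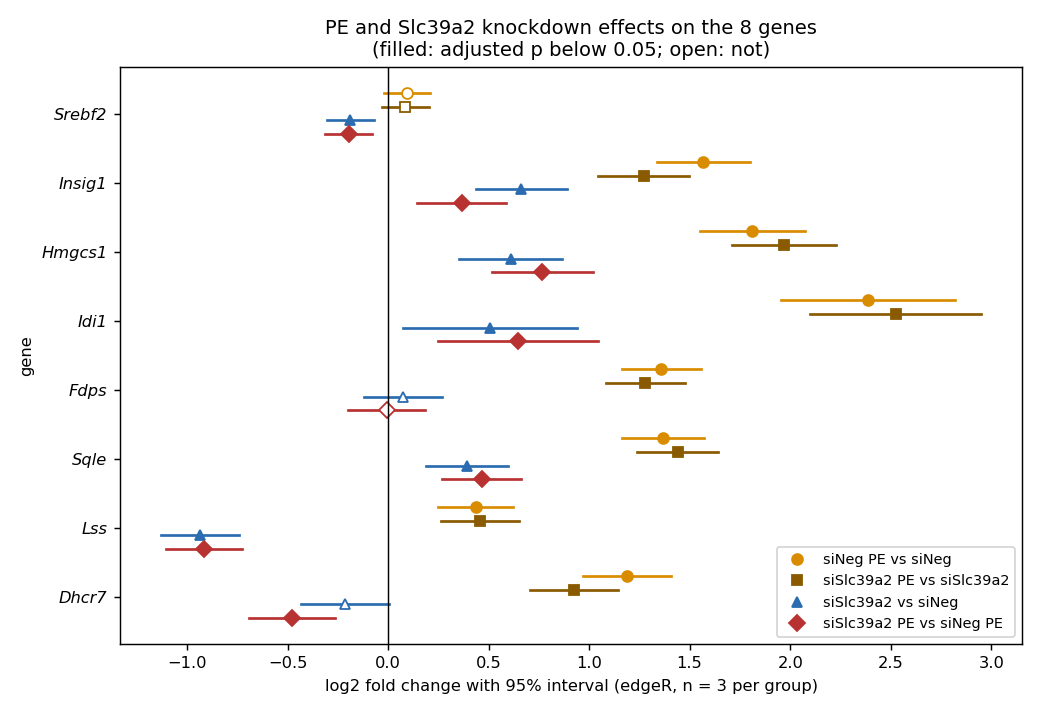
Log2 fold change (horizontal axis) of the 8 genes (vertical axis) with 95% intervals from edgeR, n = 3 per group, for PE in siNeg cells, PE in siSlc39a2 cells, knockdown without PE and knockdown with PE; filled symbols passed an adjusted p of 0.05. The PE effects lie between 0.09 and 2.52, and the knockdown effects between -0.94 and 0.77 with Lss lowest in both.

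The next comparison asked what the siRNA against Slc39a2 did without PE. With no other siRNA against Slc39a2 in these samples, effects of its loss cannot be told apart from other effects of that siRNA. The 8 genes split: Insig1, Hmgcs1, Idi1 and Sqle were higher in siSlc39a2 than in siNeg, Lss and Srebf2 were lower, and Fdps and Dhcr7 did not pass the test. Over all genes, 22.8% were higher and 26.4% lower, so a call in either direction was common in this comparison. None of the 8 changed by more than 1 on the log2 scale, against 9.78% of all genes in either direction. Lss came nearest and passed that limit in limma on log2(FPKM + 0.1) (-1.03) and without replicate 1 of siNeg (-1.002). The median over the 8 was 0.23, against -0.02 over all genes tested.

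Insig1 had 42.6, 43.6 and 56.6 FPKM in siSlc39a2, all above siNeg (log2 fold change 0.66, SE 0.11, edgeR adjusted p = 2.16e-04). Hmgcs1 had 33.5, 36.7 and 47.8 FPKM (0.61, SE 0.12, edgeR adjusted p = 9.59e-04). Sqle had 24.1, 27.4 and 31.8 FPKM (0.39, SE 0.09, edgeR adjusted p = 0.00403). In all of these, replicate 3 of siSlc39a2 was the highest sample of its group, and no siSlc39a2 sample overlapped siNeg. Idi1 had 8.44, 8.20 and 12.7 FPKM, again highest in replicate 3 (0.51, SE 0.20, edgeR adjusted p = 0.0499). Without that sample, which had the lowest total count of the 12, its log2 fold change was 0.34 (edgeR adjusted p = 0.176), and leaving out any siNeg sample also took its adjusted p above 0.05, to between 0.0727 and 0.132.

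Lss moved the other way. It had 5.30, 5.49 and 5.10 FPKM in siSlc39a2 against at least 8.31 FPKM in siNeg, and its fall of 0.94 on the log2 scale (SE 0.09, edgeR adjusted p = 2.44e-06) was the largest knockdown change of the 8. Srebf2 had 35.8, 35.8 and 33.9 FPKM, which overlapped siNeg, while its counts gave a log2 fold change of -0.19 (SE 0.05, edgeR adjusted p = 0.0109). Without replicate 3 of siSlc39a2 this was -0.10 (edgeR adjusted p = 0.158). Fdps had 265, 280 and 293 FPKM, with a log2 fold change in counts of 0.07 (95% interval -0.12 to 0.27, edgeR adjusted p = 0.523). Dhcr7 had 26.3, 27.7 and 28.7 FPKM, with -0.21 (95% interval -0.43 to 0.00, edgeR adjusted p = 0.0952).

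With PE in both groups, knockdown gave a like split. Insig1, Hmgcs1, Idi1 and Sqle were higher in siSlc39a2 PE than in siNeg PE, Lss, Dhcr7 and Srebf2 were lower, and Fdps did not pass the test. Over all genes, 29.2% were higher and 28.1% lower, and 11.6% changed past a log2 fold change of 1, which none of the 8 did, while Lss passed it in limma on log2(FPKM + 0.1) (-1.08). The median over the 8 was 0.18.

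Hmgcs1 reached 135, 141 and 167 FPKM in siSlc39a2 PE (log2 fold change 0.77, SE 0.12, edgeR adjusted p = 1.21e-04). Idi1 had 41.1, 47.6 and 72.9 FPKM, with replicate 3 far above the others (0.65, SE 0.18, edgeR adjusted p = 0.00907). Without that replicate its log2 fold change was 0.37 (edgeR adjusted p = 0.0427). Sqle had 69.7, 69.2 and 77.3 FPKM (0.47, SE 0.09, edgeR adjusted p = 8.30e-04), and Insig1 had 116, 107 and 109 FPKM (0.37, SE 0.10, edgeR adjusted p = 0.00847). Each sample of these 4 genes in siSlc39a2 PE was above every sample of the other 3 groups.

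Lss had 7.32, 6.92 and 6.42 FPKM in siSlc39a2 PE and was lower than in siNeg PE by a margin like that without PE (log2 fold change -0.92, SE 0.09, edgeR adjusted p = 2.49e-06). Dhcr7 had 56.1, 48.5 and 46.1 FPKM, all below siNeg PE (-0.48, SE 0.10, edgeR adjusted p = 0.00121). Srebf2 had 37.0, 35.9 and 34.8 FPKM (-0.20, SE 0.05, edgeR adjusted p = 0.00715), also below every siNeg PE sample. Fdps had 737, 626 and 594 FPKM, which overlapped siNeg PE, with -0.01 in counts (95% interval -0.20 to 0.19, edgeR adjusted p = 0.950).

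Whether the knockdown effect differed with and without PE was tested as an interaction. None of the 8 passed in edgeR, where 3.61% of all genes did, and none had an unadjusted p below 0.05. DESeq2, limma on log2(FPKM + 1) and edgeR with a replicate block also called 0, each with 1 gene at an unadjusted p below 0.05. The interaction of Insig1 was -0.30 on the log2 scale (95% interval -0.61 to 0.02) and that of Dhcr7 -0.26 (-0.57 to 0.04). For Hmgcs1 it was 0.16 (-0.20 to 0.52) and for Lss 0.02 (-0.25 to 0.29).

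Across both treatments, siSlc39a2 PE differed from siNeg with 6 of the 8 genes higher, 5 of them past a log2 fold change of 1, and Lss lower. Over all genes, 38.0% were higher, 37.3% lower and 17.3% higher past a log2 fold change of 1. Idi1 was 8.18-fold, Hmgcs1 5.97-fold, Insig1 3.82-fold, Sqle 3.56-fold and Fdps 2.55-fold above siNeg. Lss fell by 0.48 on the log2 scale (SE 0.09, edgeR adjusted p = 2.48e-04). This comparison, like the PE and knockdown comparisons above, uses the siNeg samples, so their values are not independent. In siSlc39a2 against siNeg PE, all 8 genes were lower, where 22.1% of all genes were higher and 23.4% lower.

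The order of the 4 groups differed between genes. Insig1, Hmgcs1, Idi1 and Sqle rose from siNeg to siSlc39a2 to siNeg PE to siSlc39a2 PE, and each neighbouring pair passed the test, Idi1 at its lowest step only narrowly. Lss ran from siSlc39a2 to siSlc39a2 PE to siNeg to siNeg PE, and each of these steps passed too. For Dhcr7, the step from siSlc39a2 to siNeg did not pass the test, although the CPM of these groups did not overlap, and siSlc39a2 PE lay above them and below siNeg PE. For Fdps only the step between the groups without and with PE passed, and for Srebf2 no neighbouring pair did.

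Sqle and Lss catalyse consecutive steps, and their relative level differed between the groups. The ratio of Sqle to Lss FPKM was 2.07, 1.85 and 2.09 in siNeg and 3.71, 3.84 and 4.26 in siNeg PE. It was 4.55, 4.98 and 6.24 in siSlc39a2 and 9.52, 10 and 12.0 in siSlc39a2 PE. The groups did not overlap, and the mean rose from 2.01 ± 0.13 to 10.5 ± 1.34 (SD, n = 3). The ratio of Fdps to Dhcr7 FPKM went less far, from 8.34 ± 0.52 in siNeg to 13.0 ± 0.16 in siSlc39a2 PE. These ratios are descriptions with no test.

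**Figure D3:**
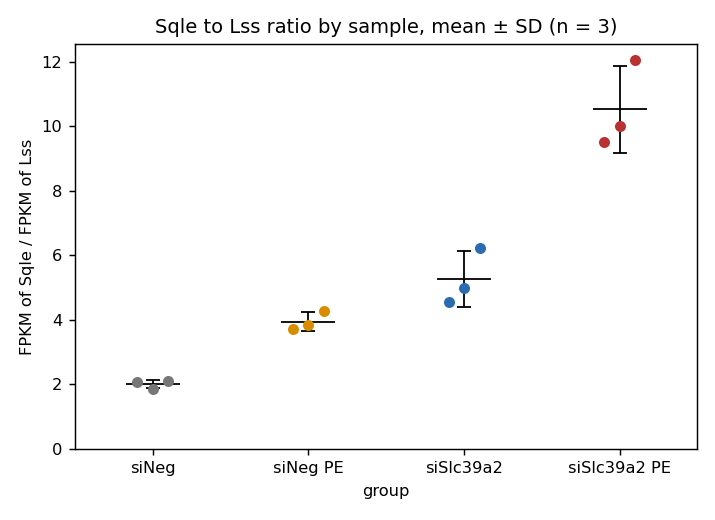
Ratio of Sqle FPKM to Lss FPKM (vertical axis, from 0) in the 4 groups (horizontal axis), with points for the samples and bars for the mean ± SD, n = 3. The siNeg samples lie between 1.85 and 2.09 and the siSlc39a2 PE samples between 9.52 and 12.0, with no overlap between groups.

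The rest of the synthesis pathway moved with PE in the same direction. Of 22 synthesis enzymes, the 6 above and 16 others, PE raised 20 in control cells, where 24.0% of all genes were higher, and 20 in knockdown cells, where 30.7% were, and lowered none in edgeR. Among the others, Hsd17b7 (log2 fold change 1.93, SE 0.10), Cyp51 (1.66, SE 0.09) and Acat2 (1.34, SE 0.10) changed most, of which Hsd17b7 and Acat2 had counts that were not whole. Mvk (0.16, SE 0.12) and Ggps1 (0.29, SE 0.14) did not pass. With knockdown without PE, 6 of 22 were higher, 7 lower and 9 did not pass, which is near the 22.8% and 26.4% of all genes called. Besides Hmgcs1, Idi1 and Sqle, those higher included Fdft1 (0.76, SE 0.08) and Cyp51 (0.48, SE 0.08). Besides Lss, those lower included Tm7sf2 (-0.60, SE 0.13), Mvk (-0.58, SE 0.12) and Acat2 (-0.40, SE 0.10). Both directions were found along the pathway: Mvk acts before Idi1 and was lower, and Cyp51 acts after Lss and was higher.

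**Figure D4:**
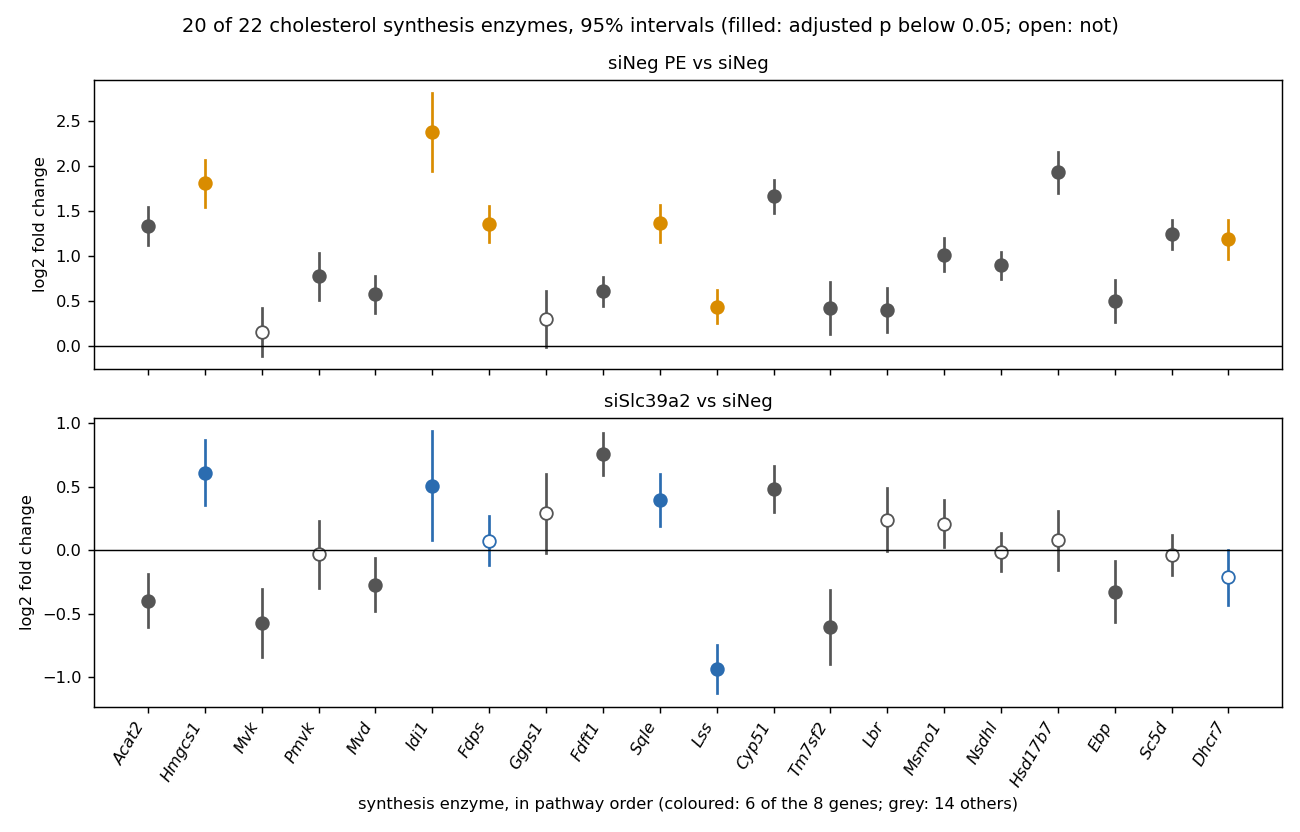
Log2 fold change with 95% intervals (vertical axes) of 20 of the 22 synthesis enzymes in pathway order (horizontal axis) for PE in control cells (top) and knockdown without PE (bottom), edgeR, n = 3 per group; filled symbols passed an adjusted p of 0.05. PE values lie above 0 for all 20 shown, while knockdown values lie on both sides, with 5 of the 20 called higher and 6 called lower.

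Genes that control SREBP2 were called about as often as genes at large. Of 11 further genes that process SREBP or act in sterol-dependent degradation, PE raised 4 and lowered 2, where 24.0% and 25.7% of all genes were called, and knockdown raised 1 and lowered 4, where 22.8% and 26.4% were. Rnf139, a ubiquitin ligase of the endoplasmic reticulum, was higher with knockdown (log2 fold change 0.82, SE 0.08) and with PE (0.39, SE 0.08). Rnf145 (0.40, SE 0.07), a ligase of the same kind, and Erlin2 (0.31, SE 0.08) were higher with PE. Scap, which escorts SREBP2 to the Golgi, was lower with PE (-0.26, SE 0.08) and with knockdown (-0.42, SE 0.08). Mbtps1, the first protease to cleave it there, was also lower with both (-0.44, SE 0.05 and -0.38, SE 0.05). 

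Uptake genes were called in both directions. Of 15 tested uptake and transport genes, PE raised 4 and lowered 6, where 24.0% and 25.7% of all genes were called, so the share raised was near that of all genes. Knockdown without PE raised 2 and lowered 10 of the 15, against 22.8% and 26.4% of all genes. Stard4, a sterol carrier, rose by 1.62 (SE 0.13) on the log2 scale with PE, Lrp8, a lipoprotein receptor, by 0.97 (SE 0.10) and Vldlr by 0.42 (SE 0.08). With knockdown without PE, Lrp1, a large endocytic receptor, fell by 1.81 (SE 0.16) and Npc2, a sterol carrier of lysosomes, by 0.77 (SE 0.10). Stard4 went the other way, with a mean of 28.1 CPM in siSlc39a2 against 16.4 CPM in siNeg. Vldlr had a mean of 110 CPM in siSlc39a2 against 81.3 CPM in siNeg.

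Over the 12 samples, Fdps (r = 0.97) and Dhcr7 (0.96) followed the mean of the other 7 genes most closely on the log2 CPM scale, then Idi1 (0.89), Sqle (0.87), Insig1 (0.84) and Hmgcs1 (0.83). Lss (0.43) and Srebf2 (0.39) followed it least. The genes whose pattern was most like the mean of the 8 were Fads1 (r = 0.993), Scd2 (0.992), Inha (0.992), Cerk (0.990), Scd (0.989), Ramp3 (0.989), Vash2 (0.987), Nsdhl (0.986), Hsd17b7 (0.986) and Tspan13 (0.983), of 11740 genes compared. These correlations largely carry the PE difference and share the samples, and they are descriptions.

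Markers of other cells moved with the groups too. Summed over 8 fibroblast markers, CPM ranged from 13630 to 18120 in siNeg, 9132 to 11760 in siNeg PE, 5435 to 5645 in siSlc39a2 and 3585 to 4932 in siSlc39a2 PE. With knockdown 6 of these 8 were lower and 1 higher, and with PE 4 were lower and 2 higher. Col1a1 made up most of the siNeg sum, with a mean of 10600 CPM in siNeg and 3395 CPM in siSlc39a2. Dcn had 59.7 and 35.1 CPM, but Tcf21 had 27.0 and 35.2 CPM, so the lower fibroblast sum was not shared by all markers either. The 5 macrophage markers summed to 80.5 to 117 CPM in siNeg and to 30.5 to 54.2 CPM in the other groups. The 4 smooth muscle markers summed to 1899 to 1959 CPM in siNeg and 755.8 to 1534 CPM elsewhere. Of these 4, all were lower with knockdown without PE, while PE in control cells lowered 2 and raised 1. Mean Cnn1 went with PE from 27.5 to 166 CPM in siNeg cells and from 12.2 to 235 CPM in siSlc39a2 cells. Cardiomyocyte markers summed to 41440 to 45220 CPM in the siNeg groups and 34850 to 38700 CPM in the siSlc39a2 groups. With knockdown without PE, 3 of these 8 were lower, 0 higher and 5 were not called. Myh6 had a mean of 15630 CPM in siNeg and 7507 CPM in siSlc39a2. Myh7 had 13710 and 13630 CPM, and Tnnt2 5007 and 5435 CPM, so the lower sum was not shared by all markers. Lss and Srebf2 were lower, and Hmgcs1, Insig1, Idi1 and Sqle higher, in the knockdown cultures, where the fibroblast marker sum was lower. The part of cell makeup in these changes was not tested.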

How the data were processed

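RNA of 12 NRVM cultures in 4 groups of 3 was sequenced. The authors deposited expected counts (estimates) per gene, not normalized, and FPKM of the same genes. The submitters' processing notes name HISAT, Bowtie2 and Rnor 6.0 without roles, and the counting program is not given in the sources used here. Each expected count was rounded to an integer. Where a gene had counts that were not whole, its values are uncertain, since such counts can come from reads split between genes. Besides the genes marked in this way above and below, this holds for Ggps1, Apoe, Hsd3b7, Vash2, Myh6 and Myh7. Genes were kept by filterByExpr (13967 kept, 4516 left out), scaled by TMM and tested in one model of the 4 groups with edgeR 4.0.16 (R 4.3.3; 8 residual degrees of freedom), using two-sided quasi-likelihood tests, with p-values adjusted by Benjamini-Hochberg over all genes tested. A gene was called at an adjusted p below 0.05. SE is the absolute log2 fold change divided by the root of F, and the biological coefficient of variation was 10.9%. The study's methods name limma, which was run as an alternative because the values are counts. P-values measure the spread between these cultures only.

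Alternatives were DESeq2 1.42.0, RLE size factors, no filter, a replicate block, limma 3.58.1 on quantile-normalized log2(FPKM + 1) or log2(FPKM + 0.1), the compared groups alone, a fold threshold and leaving out each sample. All 8 genes are named in each comparison. From each further list, up to 4 genes with the largest changes among those called were named, except that Mvk and Ggps1, the only enzymes not called with PE, were named after their values were seen. Some genes of these lists are counted but not reported here by name. The genes and lists were chosen with earlier results of these data known. The count fit was also run on simulated counts. Far fewer genes were changed there than were called here, so its outcome is not used as support.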

Additional observations from a re-analysis of the deposited data

Results flagged for a closer look

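For none of the 8 genes did the difference between the knockdown effects with and without PE pass the test. Among genes of the further metabolic lists, 6 passed by the interaction term in edgeR, where 3.61% of all genes did, and 3 of 4 smooth muscle markers passed as well. The 6 were 1 of 11 SREBP genes, 1 of 15 uptake genes, 1 of 5 oxysterol enzymes and 1 of 15 fatty acid genes. The others were 1 higher and 1 lower of 10 efflux and esterification genes. Of 16 other synthesis enzymes and 10 isoprenoid genes, none passed. The 6 genes are given with values on the log2 scale as the effect with PE less the effect without. Rnf145, a ubiquitin ligase of the endoplasmic reticulum, had an interaction of 0.48 (SE 0.10, adjusted p = 0.0222), with knockdown effects of 0.10 without PE and 0.58 with PE. For Lrp8, a lipoprotein receptor, the interaction was 0.64 (SE 0.14, adjusted p = 0.0212), from -0.26 to 0.39. Abcg1, a sterol exporter, had 0.99 (SE 0.18, adjusted p = 0.00861), from 0.35 to 1.33. Arl4c had -0.58 (SE 0.13, adjusted p = 0.0317), from 0.62 to 0.04. Cyp27a1, the sterol hydroxylase of mitochondria, had -0.58 (SE 0.12, adjusted p = 0.0180), from 1.24 to 0.66. Gpam, an acyltransferase of glycerolipid synthesis, had -0.65 (SE 0.11, adjusted p = 0.00740), from 0.04 to -0.61.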

How the results depend on the processing

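Of 824 log2 fold changes of the 8 genes under alternatives, 781 kept their direction and their side of the threshold, 6 passed only under the alternative, 10 lost the call and 27 changed sign. Fdps in siSlc39a2 PE against siNeg PE had -0.01 in counts but 0.17 in limma on log2(FPKM + 1), with and without the filter, and on log2(FPKM + 0.1), with adjusted p-values of 0.0240 to 0.0451, and -0.12 to 0.0705 on leaving out samples. The other sign changes were in interactions that no setting called. For Fdps it was 0.0067 in limma on log2(FPKM + 1), with and without the filter, and 0.0063 on log2(FPKM + 0.1). For Lss it was -0.0026 in DESeq2, -0.0022 with RLE, -0.018 without a filter, -0.071 in limma on log2(FPKM + 1), with and without the filter, and -0.0545 on log2(FPKM + 0.1). On leaving out samples the interaction ran from -0.093 to 0.013 for Srebf2, -0.14 to 0.30 for Idi1, -0.013 to 0.12 for Sqle and -0.080 to 0.086 for Lss. Fdps without PE also passed in limma on log2(FPKM + 1) (0.17, adjusted p = 0.0439). Before quantile normalization, the mean FPKM of Fdps was 652.2 in siNeg PE and 652.4 in siSlc39a2 PE. The cause of these differences between settings was not tested. With knockdown without PE, Idi1 lost its call in limma (0.34 to 0.37, adjusted p = 0.160 to 0.246), and Srebf2 without a filter (-0.15, adjusted p = 0.0821) and with the compared groups alone (-0.16, adjusted p = 0.0716). Srebf2 with PE passed in limma (0.19, adjusted p = 0.00678 to 0.0240).

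With a log2 fold change above 1 required as well, 0 of 8 were called for knockdown without PE (6 without this limit), 0 for knockdown with PE (7) and 5 for siSlc39a2 against siNeg PE (8). Leaving out each sample in turn gave 4 to 6 for knockdown without PE, and 4 came without replicate 3 of siSlc39a2. With the replicate block, 7 were called for PE, 6 for knockdown, 7 for knockdown with PE, 7 for PE in knockdown cells, 7 for siSlc39a2 PE against siNeg, 8 for siSlc39a2 against siNeg PE and 0 for the interaction, the same counts as without it. Deviations of same-numbered samples correlated between -0.09 and 0.32, above 0.1 in 8 of 18 pairs, and 7 of 12 samples were closest to their own number. The mean correlation for the same number was above 0 in all 6 pairs of groups, from 0.006 to 0.191. Since deviations were taken from the group means, the mean for other numbers then tends to fall below 0 by construction, so it adds no separate evidence. As not every pair exceeded 0.1 and no source says that a number marks a shared preparation, the fit without the block was kept as the main one.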

Other observations

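Over all genes tested, 24.0% were higher and 25.7% lower with PE, and 22.8% were higher and 26.4% lower with knockdown without PE. Of the fatty acid synthesis genes, 15 were tested. PE raised 10 and lowered 2, led by Scd (log2 fold change 3.73, SE 0.10) and Scd2 (1.63, SE 0.08), desaturases whose counts were not whole, Fads2 (1.35, SE 0.08) and Fasn (1.00, SE 0.10), the fatty acid synthase. Knockdown without PE lowered 6 and raised 2, with Fads2 at -0.71 (SE 0.09), Fasn at -0.61 (SE 0.10), Scd2 at -0.36 (SE 0.08) and Acaca at -0.31 (SE 0.10), while Scd had -0.04 (SE 0.10, edgeR adjusted p = 0.780).

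Of 5 oxysterol enzymes tested, knockdown without PE raised Ch25h (log2 fold change 1.72, SE 0.32, at most 51 counts in a sample), Cyp27a1 (1.24, SE 0.09) and Cyp7b1 (1.12, SE 0.18) and lowered Cyp46a1 (-1.97, SE 0.22), while PE raised none and lowered Cyp27a1 (-0.34, SE 0.09) and Hsd3b7 (-0.27, SE 0.07). Counts were also low for Cyp7b1 (26 to 37 in siNeg, 69 to 86 in siSlc39a2) and Cyp46a1 (69 to 84 in siNeg, 17 to 27 in siSlc39a2). Of 10 efflux and esterification genes, knockdown without PE raised 3 and lowered 3. Apoe, a lipoprotein component also made by macrophages and fibroblasts, fell by 2.30 (SE 0.10) on the log2 scale, and Abca1, the cholesterol exporter, by 0.99 (SE 0.25). PE raised 3 and lowered 2 of these 10. Of 10 genes of the isoprenoid branch, PE raised 3 and lowered 2, and knockdown raised 2 and lowered 3, and the counts of these last 2 lists lie near the shares of all genes.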
